A study of Mus musculus with 36 samples.

Results

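A set of 10 genes of sterol and bile acid transport were followed through the mouse small intestine: Npc1l1, Abcg5, Abcg8, Scarb1, Slc10a2, Fabp6, Slc51a, Slc51b, Nr1h4 and Fgf15. They were chosen by name, with earlier results of these data known. Each of the 10 was found among the 27179 genes of the count files through its Entrez identifier. All 10 were also among the 14716 genes that passed the filter on low counts. The 12 libraries used came from mice labelled lnc13-WT-DQ8 (WT) and lnc13-KO-DQ8 (KO), both challenged with gluten, and DQ8 stands in the labels of both genotypes. The KO mice lacked lnc13, a long noncoding RNA, per the labels, and the labels give no sex, age, intestinal segment or number of animals per library. RNA had been taken from whole tissue, from lamina propria lymphocyte (LPL) preparations and from intraepithelial lymphocyte (IEL) preparations, with 2 libraries per genotype and preparation. The CD8 T cell and RNA purification samples of the series, and lnc13 itself, were not analysed here.

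Bile acids are made in the liver from cholesterol, reach the gut lumen, and are mostly recovered in the ileum, the last segment of the small intestine. There Slc10a2 takes them up across the brush border, Fabp6 binds them in the cytosol, and the Slc51a and Slc51b subunits together export them toward the blood. Nr1h4 (the nuclear receptor FXR) senses bile acids and drives Fgf15, a hormone that lowers bile acid synthesis in the liver. Dietary cholesterol enters enterocytes through Npc1l1, which is most active in the proximal gut. Abcg5 and Abcg8 form a heterodimer that pumps sterols back into the lumen, and Scarb1 is a receptor for high density lipoprotein.

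Start regions of 5 members are shown because the levels described further on separate the bile acid genes from the sterol genes, and because Abcg5 and Abcg8 share a start region. Sequences are from RefSeq on GRCm38.p6, the assembly known as mm10, and are read 5′ to 3′ on the strand of the gene, or on the plus strand for the pair. Fabp6 is shown at chr11:43601563-43601812 (minus strand), the 250 bases before its start, with capitals marking matches to an inverted repeat of AGGTCA spaced by 1 base, the arrangement bound by FXR.
Fabp6: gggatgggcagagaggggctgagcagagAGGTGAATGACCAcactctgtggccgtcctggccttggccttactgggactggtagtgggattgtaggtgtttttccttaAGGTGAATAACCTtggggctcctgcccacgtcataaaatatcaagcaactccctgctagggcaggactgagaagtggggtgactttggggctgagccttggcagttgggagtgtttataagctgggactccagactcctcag
Slc10a2 at chr8:5105288-5105537 (minus strand) and Npc1l1 at chr11:6230246-6230495 (minus strand) are shown with capitals at matches to GTTAATNATTAAC, the arrangement bound by HNF1 factors.
Slc10a2: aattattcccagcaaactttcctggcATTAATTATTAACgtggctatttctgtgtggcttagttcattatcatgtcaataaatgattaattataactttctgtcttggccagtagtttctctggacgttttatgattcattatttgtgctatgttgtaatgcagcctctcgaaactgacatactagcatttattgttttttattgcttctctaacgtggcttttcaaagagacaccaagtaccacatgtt
Npc1l1: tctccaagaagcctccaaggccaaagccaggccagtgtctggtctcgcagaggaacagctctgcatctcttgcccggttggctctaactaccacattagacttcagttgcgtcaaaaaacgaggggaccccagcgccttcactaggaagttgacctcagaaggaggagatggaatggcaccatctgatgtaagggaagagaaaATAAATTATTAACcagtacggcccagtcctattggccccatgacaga
Abcg5 and Abcg8 are transcribed away from each other, and the 109 bases between their starts lie at chr17:84683012-84683120, with capitals at AGATAA read on the minus strand, a motif bound by GATA factors.
Abcg5-Abcg8: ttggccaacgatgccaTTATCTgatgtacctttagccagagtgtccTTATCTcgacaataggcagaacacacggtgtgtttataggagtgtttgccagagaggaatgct

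Windows of 300 bases, 250 before and 50 after the start, were found for 8 members, all but Scarb1 and Fgf15, and both strands were searched. In Fabp6 the inverted repeat AGGTCANTGACCT matched at 222 to 210 and at 142 to 130 bases before the start, each with 2 mismatches of 12 defined positions. Such a match, with at most 2 mismatches, was in 1.14% of 32851 windows of that length, and in no other member's window. GTTAATNATTAAC matched with 1 mismatch in Slc10a2 (224 to 212 bases before the start) and with 2 in Npc1l1 (47 to 35) and Nr1h4 (40 to 28), against 1.36% of windows with at most 2. The single site AGGTCA, which overlaps the inverted repeat in its letters, was in the windows of Slc51b, Slc51a, Nr1h4 and Npc1l1 and in 16.3% of windows. CAAGGTCA was in no member's window and in 1.56% of all windows. AGATAA occurred in both the Abcg5 and the Abcg8 window, which share 209 bases, once in Nr1h4, and in 11.2% of windows. A second Abcg8 window, at chr17:84676052-84676351, held none of these motifs. The Nr1h4 window, at chr10:89506609-89506908, lies within the annotated span of the gene, which runs to 89533645, so it is not at the outermost start. These are matches of letters in these windows and no binding was measured.

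Library totals were 10186522 to 13620975 reads, so that 3 reads, taken as the detection floor, were worth 0.185 to 0.359 counts-per-million units (CPM). CPM were scaled by TMM factors, which take most genes as unchanged between libraries, and are not divided by gene length, so levels are compared between libraries and not between genes. Marker genes were checked against the labels. The summed level of 12 T cell genes was 615 to 2544 CPM in IEL, 76.4 to 270 in tissue and 7.01 to 208 in LPL, and Cd3e in 1 LPL library was at 0.35 CPM. The 12 epithelial genes summed to 23800 to 34135 CPM in tissue, 11006 to 12575 in IEL and 9866 to 13748 in LPL, so epithelial RNA was present in all 3 preparations. Epcam, the epithelial adhesion gene, was at 2598 to 4865 CPM in tissue, 916 to 1291 in LPL and 960 to 1159 in IEL. B and plasma cell genes summed to 762 to 5622 CPM in LPL and 294 to 885 in tissue. Exocrine pancreas genes summed to 5630 to 11345 CPM in LPL and to at most 91.6 elsewhere. WT LPL replicate 1 stood apart by Ptprc, the pan-leukocyte gene, at 166.9 CPM against 6.84 to 11.5 in the other LPL libraries. Ptprc was at 17.4 to 34.9 CPM in tissue and 91.8 to 296 in IEL, so those other LPL libraries lay below tissue. LPL and IEL are thus names from the labels, and no purity of lymphocytes is implied. The tissue libraries differed by replicate number: both libraries numbered 2 held the Y-linked Ddx3y (34.0 and 38.7 CPM) and almost no Xist (0.25 and 0), while both numbered 1 held Xist (81.9 and 58.9 CPM) and at most 0.11 of Ddx3y. Every LPL and IEL library held Xist (195.9 to 384 CPM) and at most 0.062 CPM of Ddx3y, so each comparison with tissue sets tissue libraries of which 2 of 4 held Ddx3y above the detection floor against libraries that all lay below it, and the part of sex in it was not tested beyond the fits by tissue number given further on. In bulk libraries, fewer cells of a type and less RNA per cell cannot be told apart.

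The bile acid genes were the members whose tissue libraries lay above every LPL and every IEL library. Slc10a2, Fabp6, Slc51a, Slc51b, Nr1h4 and Fgf15 were each lower in both the LPL and the IEL preparations, by 3.17-fold (Nr1h4, LPL) to 259-fold (Slc10a2, LPL). Over all 10 members, IEL against tissue had 7 lower and 0 higher at an adjusted p of 0.05 (edgeR quasi-likelihood test with Benjamini-Hochberg adjustment), where 45% of all genes passed, 23.1% lower and 21.9% higher. In LPL against tissue 9 were lower and 0 higher, where 55.3% of genes passed, 28% lower and 27.3% higher. In IEL against LPL 5 were higher and 0 lower, where 19.4% passed, 11.5% higher and 7.92% lower. The members' median log2 differences were -2.67, -3.52 and 1.27 in these comparisons, beside 0.05, 0.03 and -0.03 over all genes. The first and the second comparison share the tissue libraries, and the third is the first minus the second, so none is independent of the others.

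**Figure D1:**
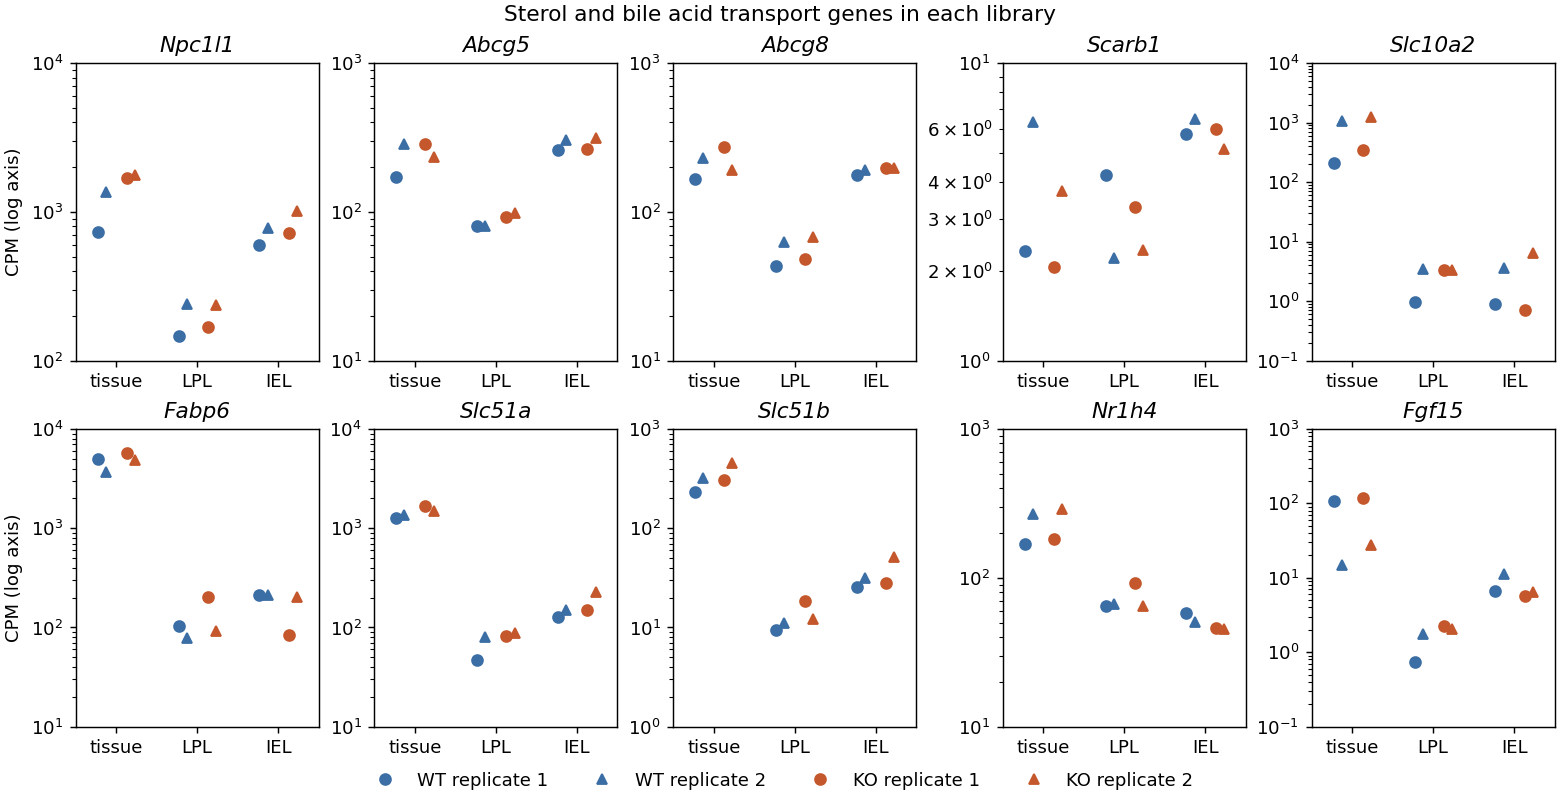
Level of each member in the 12 libraries, in CPM on a log axis that differs between panels, by preparation (tissue, LPL, IEL). Each point is 1 library (blue WT, orange KO, circles replicate 1, triangles replicate 2). Fabp6 stands at 3730 to 5739 CPM in tissue and at 77.9 to 214 in the other preparations, whereas Abcg5 in IEL (262 to 312) overlaps its tissue levels.

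Slc10a2, the brush border bile acid transporter, stood at 208 and 1075 CPM in WT tissue and at 344 and 1238 in KO tissue, replicates 1 and 2 in this order. The LPL libraries held 0.98 and 3.44 CPM in WT and 3.29 and 3.40 in KO, and the IEL libraries 0.89 and 3.60 in WT and 0.71 and 6.45 in KO. The lowest tissue library was thus far above every LPL and IEL library, where the level rested on 7 to 70 reads. The log2 difference was -7.97 ± 0.97 (SE) in IEL and -8.02 ± 0.97 in LPL against tissue (adjusted p = 0.000554 and 0.000205). The size moved by over 1.5 times without WT tissue replicate 2 (-7.14 in IEL, -7.16 in LPL), KO tissue replicate 2 (-7.34 and -7.36), WT IEL replicate 2 (-8.57) or KO IEL replicate 2 (-9.09), and the call was kept each time. IEL and LPL did not differ in Slc10a2 beyond their spread (0.05 ± 0.85, adjusted p = 0.98).

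Fabp6, the ileal bile acid binding protein, was at 4959 and 3730 CPM in WT tissue and at 5739 and 4897 in KO tissue. LPL libraries held 103 and 77.9 CPM in WT and 201 and 91.5 in KO. IEL libraries held 213 and 214 CPM in WT and 83.4 and 203 in KO. Tissue lay above both other preparations in every library, and LPL and IEL overlapped. The level was 27.5-fold lower in IEL (log2 -4.78 ± 0.39, adjusted p = 0.000126) and 41.8-fold lower in LPL (-5.38 ± 0.40, adjusted p = 2.27e-05). The difference of IEL from LPL was 0.60 ± 0.33 and did not pass (adjusted p = 0.229).

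Slc51a and Slc51b encode the subunits of the basolateral bile acid exporter. Slc51a stood at 1257 and 1361 CPM in WT tissue and 1656 and 1476 in KO tissue, at 47.0 and 81.0 in WT LPL and 82.7 and 88.9 in KO LPL, and at 127 and 149 in WT IEL and 151 and 229 in KO IEL. Slc51b stood at 232 and 321 CPM in WT tissue and 307 and 459 in KO tissue, at 9.45 and 11.2 in WT LPL and 18.4 and 12.3 in KO LPL, and at 25.3 and 31.5 in WT IEL and 28.2 and 51.3 in KO IEL. Both subunits had the order tissue, IEL, LPL with no overlap between preparations. In IEL Slc51a was 8.84-fold lower than in tissue (log2 -3.14 ± 0.22, adjusted p = 7.37e-05) and Slc51b 9.68-fold lower (-3.27 ± 0.26, adjusted p = 0.000114). In LPL they were 19.3-fold and 25.8-fold lower than in tissue (-4.27 ± 0.24 and -4.69 ± 0.28, adjusted p = 9.52e-06 and 1.13e-05). In IEL against LPL the subunits were higher by 1.13 ± 0.21 and 1.42 ± 0.25 on the log2 scale (adjusted p = 0.00693 and 0.00538). The ratio of Slc51b to Slc51a reads was 0.184 to 0.311 in tissue, 0.138 to 0.223 in LPL and 0.186 to 0.224 in IEL, ranges that overlap, and the log2 levels of the pair correlated at r = 0.99 across the 12 libraries, which share preparations, so no p is given. Slc51b shares 3386 bases of its span with Rasl12, whose level was 5.03 to 9.70 CPM in tissue, 0.75 to 2.25 in LPL and 1.40 to 2.45 in IEL.

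Nr1h4, the bile acid receptor FXR, had the smallest tissue excess of the 6 bile acid genes. Its level was 168 and 270 CPM in WT tissue and 182 and 289 in KO tissue, 64.2 and 67.1 in WT LPL and 92.3 and 64.4 in KO LPL, and 58.2 and 50.5 in WT IEL and 46.1 and 45.1 in KO IEL. Here the order was tissue, LPL, IEL, with no overlap between preparations. The difference from tissue was -2.19 ± 0.21 in IEL and -1.66 ± 0.21 in LPL on the log2 scale (adjusted p = 0.000248 and 0.000262). IEL lay below LPL by -0.53 ± 0.21, which did not pass (adjusted p = 0.106), though it passed with library totals as the only scaling (-0.74, adjusted p = 0.0159) and in a fit of the IEL and LPL libraries alone (-0.57, adjusted p = 0.0292).

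Fgf15, the hormone gene driven by FXR, had, relative to its level, the widest spread of the members between tissue libraries. Tissue held 109 and 14.8 CPM in WT and 117 and 27.8 in KO, LPL 0.75 and 1.75 in WT and 2.25 and 2.04 in KO, and IEL 6.60 and 11.3 in WT and 5.71 and 6.45 in KO. Every tissue library lay above every IEL library, and every IEL library above every LPL library, although WT tissue replicate 2 came close to the highest IEL library. The level was 9.07-fold lower in IEL than in tissue (log2 -3.18 ± 0.66, adjusted p = 0.0049) and 40.4-fold lower in LPL (-5.34 ± 0.74, adjusted p = 0.000433). Without WT tissue replicate 1 these became -2.15 and -4.30, and without KO tissue replicate 1 -2.46 and -4.59, still past the threshold. IEL against LPL gave 2.16 ± 0.70 (adjusted p = 0.0592), with an adjusted p of 0.00742 with no filter on low counts, 0.00251 by DESeq2 and 0.00644 in a fit of those libraries alone, over a range of alternatives from 0.00251 to 0.0999.

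The sterol genes followed another order. Npc1l1, Abcg5 and Abcg8 were lower in LPL than in either other preparation, and their IEL and tissue levels overlapped. Npc1l1, the cholesterol uptake transporter, was at 733 and 1368 CPM in WT tissue and 1686 and 1768 in KO tissue, at 147.1 and 242 in WT LPL and 169 and 236 in KO LPL, and at 603 and 781 in WT IEL and 723 and 1008 in KO IEL. In LPL it was 6.79-fold lower than in tissue (log2 -2.76 ± 0.28, adjusted p = 8.17e-05), and in IEL 3.90-fold higher than in LPL (1.96 ± 0.27, adjusted p = 0.0018). IEL against tissue gave -0.80 ± 0.26 (adjusted p = 0.0335), the only sterol gene to pass there. That call was lost in 7 of 8 fits without 1 library (adjusted p 0.0525 to 0.15) and kept only without WT tissue replicate 1 (-0.99, adjusted p = 0.016). With library totals as the only scaling it was -0.60 (adjusted p = 0.101).

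Abcg5 and Abcg8, the partners of the sterol efflux pump, were both lowest in LPL. Abcg5 stood at 173 and 287 CPM in WT tissue and 284 and 234 in KO tissue, at 80.3 and 80.3 in WT LPL and 92.2 and 99.0 in KO LPL, and at 262 and 306 in WT IEL and 264 and 312 in KO IEL. Abcg8 stood at 167 and 231 CPM in WT tissue and 272 and 191 in KO tissue, at 43.1 and 63.2 in WT LPL and 48.1 and 68.3 in KO LPL, and at 177 and 193 in WT IEL and 198 and 196 in KO IEL. Tissue and IEL overlapped for both genes, and every LPL library lay below both. LPL was lower than tissue by -1.48 ± 0.18 for Abcg5 and -1.95 ± 0.20 for Abcg8 on the log2 scale (adjusted p = 0.000196 and 9.44e-05). IEL was higher than LPL by 1.71 ± 0.18 and 1.78 ± 0.20 (adjusted p = 0.000488 and 0.000748). In IEL against tissue neither passed, with 0.23 ± 0.17 for Abcg5 (adjusted p = 0.304) and -0.17 ± 0.19 for Abcg8 (adjusted p = 0.508), the latter 0.02 with library totals as the only scaling. The ratio of Abcg8 to Abcg5 reads was 0.803 to 0.966 in tissue, 0.521 to 0.787 in LPL and 0.629 to 0.748 in IEL, so tissue lay above both others. The log2 levels of the pair correlated at r = 0.96 across the 12 libraries, again with no p. Their annotated spans (chr17:84658174-84683011 and chr17:84676302-84700333) overlap by 6710 bases, since a second Abcg8 start is annotated at 84676302 within Abcg5, and no source used here says whether counting used strand, so reads in that stretch may not be told apart.

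Scarb1, the lipoprotein receptor, had the fewest reads of the members in tissue, 19 to 77 a library. It stood at 2.33 and 6.35 CPM in WT tissue and 2.07 and 3.71 in KO tissue, at 4.20 and 2.21 in WT LPL and 3.29 and 2.35 in KO LPL, and at 5.80 and 6.50 in WT IEL and 6.02 and 5.16 in KO IEL. IEL lay above LPL in every library, and tissue overlapped both. No comparison of preparations passed: 0.73 ± 0.38 in IEL against tissue (adjusted p = 0.148), -0.24 ± 0.38 in LPL against tissue (adjusted p = 0.616), and 0.96 ± 0.38 in IEL against LPL (adjusted p = 0.106). Without WT tissue replicate 2, IEL against tissue was 1.18 and passed (adjusted p = 0.0379). Counting libraries that did not overlap, 6 members separated IEL from tissue, 9 LPL from tissue and 8 IEL from LPL, where 45.8%, 51.6% and 32.4% of all genes did so.

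**Figure D2:**
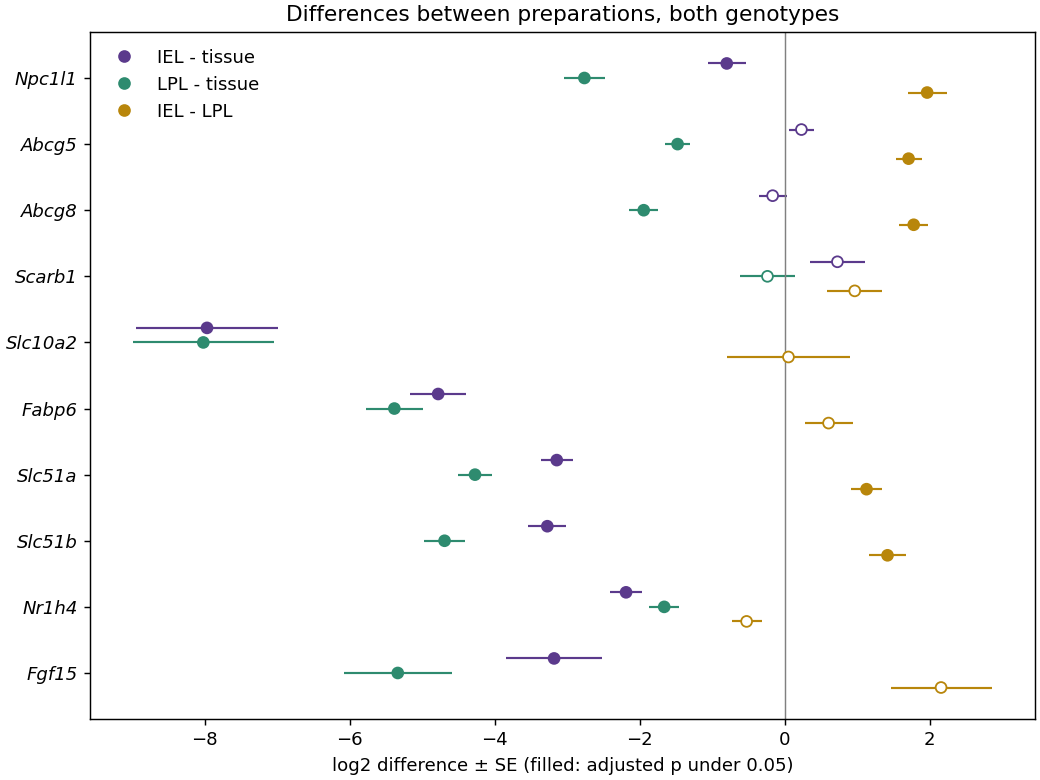
Log2 difference between preparations, averaged over genotypes, for each member (points, bars ± 1 SE), in IEL against tissue (purple), LPL against tissue (green) and IEL against LPL (ochre). Filled points passed an adjusted p of 0.05. The 6 bile acid genes lie between -1.66 and -8.02 against tissue, and in IEL against tissue Abcg5 is at 0.23, Abcg8 at -0.17 and Scarb1 at 0.73 by this scaling, none of them past the test, where Abcg8 changes sign with library totals as the only scaling or with scaling to epithelial genes, and Scarb1 in LPL against tissue does so too.

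Because the epithelial genes took a larger share of reads in tissue than in LPL and IEL, whose ranges overlapped, the levels were also set against the reads of the 12 epithelial genes. These 12 did not move alike: in LPL against tissue 7 passed as lower and 1 as higher, beside 28% and 27.3% of all genes. Mean Krt20 was 230 CPM in LPL and 4932 in tissue, and Krt18 453 and 184. The sum may thus not measure the same epithelial RNA in LPL and tissue, and the part of pancreas RNA in it was not tested. With scaling to epithelial genes 79.3% of all genes passed in IEL against tissue and 75.9% in LPL against tissue. The median of all genes was 1.32 in IEL against tissue and 1.28 in LPL against tissue, beside 0.05 and 0.03 with TMM. The share of calls that were higher became 91.8% and 88.9%, beside 48.7% and 49.4%. With library totals as the only scaling the median was 0.24 and 0.45 and those shares were 60% and 69%, and in IEL against LPL 33.9% of calls were higher against 59.2% with TMM. Per 1000 epithelial reads, Fabp6 stood at 131 to 208 reads in tissue, 5.67 to 15.4 in LPL and 6.65 to 19.5 in IEL, and Slc10a2 at 8.73 to 37.6, 0.10 to 0.26 and 0.06 to 0.51. All 6 bile acid genes still passed as lower in IEL, where 6.51% of all genes did so, with Nr1h4 the smallest at -0.90 and Slc51b at -1.98. Abcg5 was now higher in IEL (21.1 to 27.8 per 1000 against 6.85 to 10.1, log2 1.52, adjusted p = 6.68e-05), as were Abcg8 (14.3 to 17.5 against 5.58 to 8.56, 1.11, adjusted p = 0.000298) and Scarb1 (2.03, adjusted p = 0.0013), a direction in which 72.8% of all genes passed. Npc1l1 changed sign to 0.50 (adjusted p = 0.0564). In LPL against tissue 7 members passed as lower, beside 8.42% of genes, the differences of Abcg5 (-0.21, adjusted p = 0.316) and Nr1h4 (-0.39, adjusted p = 0.0832) did not pass, and Scarb1 was higher (1.08, adjusted p = 0.034), beside 67.5% of genes.

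**Figure D3:**
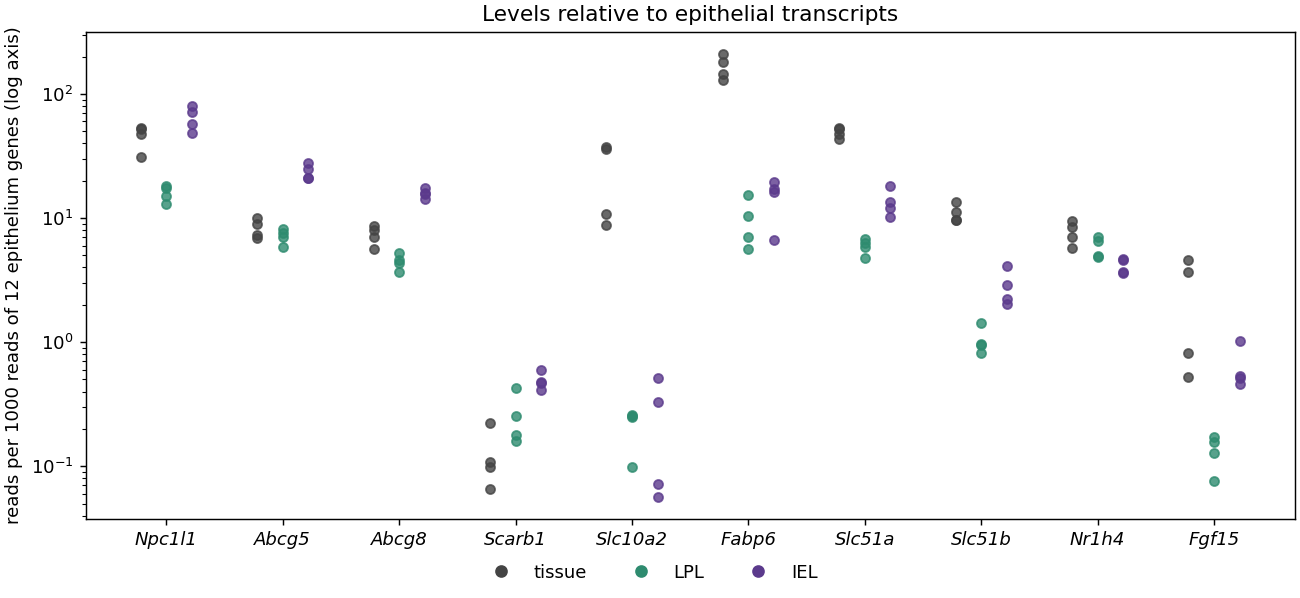
Reads of each member per 1000 reads of 12 epithelial genes, on a log axis, 1 point per library (grey tissue, green LPL, purple IEL). Tissue stays above IEL for Slc10a2, Fabp6, Slc51a, Slc51b and Nr1h4, and IEL lies above tissue for Abcg5, Abcg8 and Scarb1. For Npc1l1 and Fgf15 tissue and IEL overlap.

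Marker genes of the intestinal segments moved with these differences, and their part in them was not tested. Of 6 distal genes 5 were tested, and against tissue 5 were lower in IEL and 5 in LPL, beside 23.1% and 28% of all genes. Their median log2 difference was -1.60 in IEL and -5.51 in LPL. The enteroendocrine genes Nts (log2 -5.57) and Pyy (-4.61) fell most in IEL. Cubn (160 to 314 CPM in IEL, 221 to 1137 in tissue) and Amn (118 to 160 and 183 to 355) fell less. Of 12 proximal genes, against tissue 8 passed as higher and 3 as lower in IEL, beside 21.9% and 23.1% of all genes. LPL had 5 higher and 2 lower, beside 27.3% and 28% of all genes. LPL also held RNA of exocrine pancreas genes (5630 to 11345 CPM summed), and its part in the LPL counts was not tested. Onecut2, a transcription factor of the proximal gut, was 7.43 higher in IEL on the log2 scale. That size rests on a tissue level of 0.25 to 0.54 CPM, near the detection floor, beside 46.5 to 72.0 in IEL. Sct, Slc40a1 and Cybrd1 went the other way, with IEL means of 24.6, 36.5 and 0.82 CPM against 41.6, 140 and 2.77 in tissue. The summed level was 223.8 to 602 CPM in tissue, 403 to 775 in LPL and 3053 to 4439 in IEL for the proximal genes, and 497 to 1579, 37.7 to 54.6 and 331 to 473 for the distal genes. Lct, lactase of the proximal brush border, was at 81.2 and 0.33 CPM in WT tissue and 211 and 0.36 in KO tissue, and at 1123 to 1826 in IEL.

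Within whole tissue several members differed between the libraries numbered 1 and 2. In both genotypes 5 members were higher in number 2 and 2 in number 1, while Abcg5 (number 2 over number 1, 1.66 in WT and 0.82 in KO), Abcg8 (1.38 and 0.70) and Slc51a went opposite ways in WT and KO. Npc1l1 gave 1.87 in WT and 1.05 in KO. The share of all genes with 1 direction in both genotypes was not counted, here or for the proximal genes below. Over all genes tested, same-numbered WT and KO tissue libraries correlated at r = 0.638 after removal of group means. These counts are therefore not set apart from other genes. Slc10a2 was 5.17-fold higher in number 2 in WT and 3.60-fold in KO, and 4.61% of all genes were at least 3-fold higher in number 2 in both genotypes. Fgf15 went the other way, 7.34-fold higher in number 1 in WT and 4.21-fold in KO, where 1.03% of genes were at least 3-fold higher in number 1 in both. Thus the uptake transporter was high where the hormone gene was low, while Fabp6 (1.33-fold and 1.17-fold higher in number 1) and Slc51a (1.08-fold higher in number 2 in WT and 1.12-fold higher in number 1 in KO) differed little. Nr1h4 was 1.60-fold and 1.59-fold higher in number 2. The proximal genes Lct and Gata4, a transcription factor of the proximal gut, were almost confined to number 1 among the tissue libraries, with Gata4 at 23.0 and 48.9 CPM there against 1.48 and 1.68. They were singled out after their values were seen: of the 12 proximal genes 8 were higher in number 1 in both genotypes, and 3 (Sct, Slc40a1 and Cybrd1) in number 2. Each number holds 1 WT and 1 KO library, and Ddx3y was above the detection floor in number 2 only, so sex, the piece of gut taken and the number itself cannot be told apart. In added fits with the tissue libraries of 1 number only, the 6 bile acid genes passed as lower in IEL each time, where 15.1% of genes did so with number 1 and 22% with number 2. Slc10a2 gave -6.62 with number 1 and -8.66 with number 2, and Fgf15 -4.00 and -1.45. With number 1 Npc1l1 did not pass (-0.59, adjusted p = 0.147) and Scarb1 was higher (1.34, adjusted p = 0.0417), beside 11.1% of genes.

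**Figure D4:**
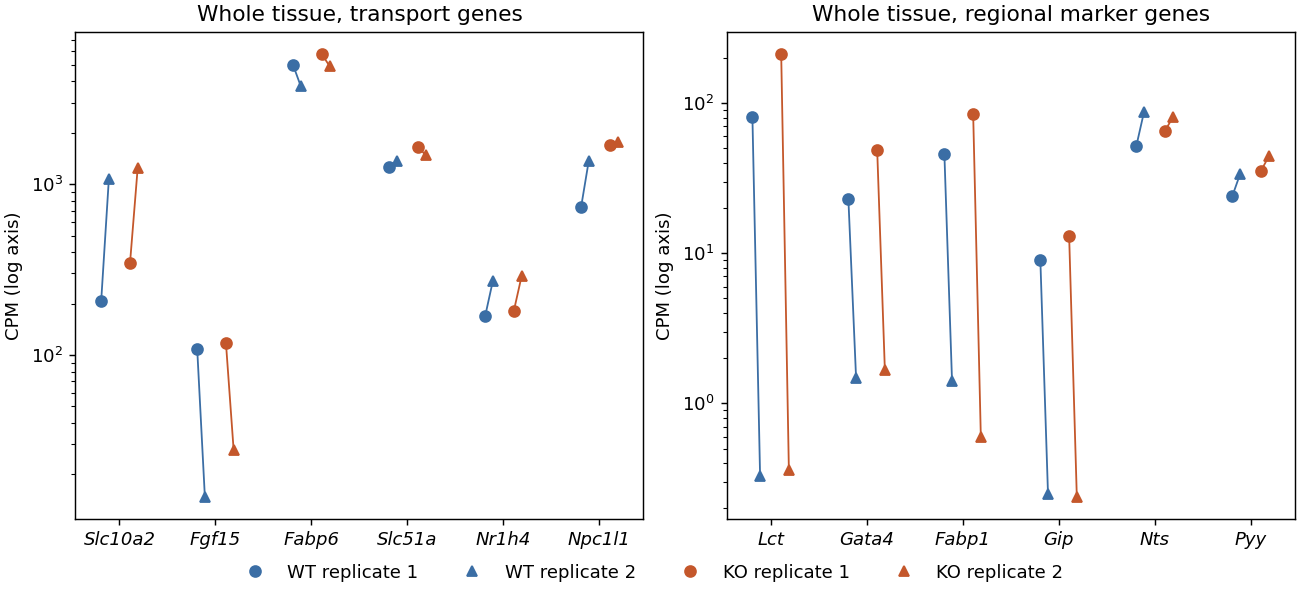
CPM, on a log axis, in the 4 whole-tissue libraries for 6 members (left) and 6 regional marker genes (right). Lines join replicate 1 (circle) to replicate 2 (triangle) of 1 genotype (blue WT, orange KO). In both genotypes Slc10a2 is higher in the triangle and Fgf15, Lct and Gata4 in the circle, and the lines carry no order in time.

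No member passed the test of KO against WT in any preparation. Of the 10, 0 passed in tissue, 0 in LPL and 0 in IEL, where 0% of all 14716 genes passed in each (edgeR quasi-likelihood test, Benjamini-Hochberg adjustment). At an unadjusted p under 0.05 the genes that passed were 463 (3.15%) in tissue, 448 (3.04%) in LPL and 120 (0.815%) in IEL, and 0 members were among them. DESeq2 called 4, 1 and 1 genes, with 0 members. The members' standard errors were 0.25 to 0.99 in tissue, 0.25 to 1.17 in LPL and 0.24 to 1.22 in IEL on the log2 scale, so a difference of the size seen for most members was not detectable with 2 libraries a group.

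In tissue the largest KO difference of the members was that of Npc1l1 (733 and 1368 CPM in WT, 1686 and 1768 in KO), 0.72 ± 0.37 on the log2 scale (unadjusted p = 0.0835, adjusted p = 1), with both KO libraries above both WT libraries. Within replicate numbers the KO level was 2.30 and 1.29 times the WT level. With scaling to epithelial genes the Npc1l1 difference was 0.42. In KO against WT in tissue 11 proximal genes were positive and 1 negative (median log2 0.73). Of the epithelial genes 10 were positive and 2 negative (0.32). No gene of these 2 lists passed, 48.6% of all genes were positive, and the part of these markers was not tested. The positions of both KO libraries above both WT held for 2 members in tissue (Npc1l1, Slc51a), where 13.2% of genes had it and 12.3% the reverse. In LPL it held for 4 (Abcg5, Slc51a, Slc51b, Fgf15), beside 9.89% of genes, and the reverse for 0, beside 8.62%. Markers of other cells moved in the same comparison, though 0 passed the adjusted test, and their part in it was not tested: the 12 T cell genes were all lower in KO LPL (median log2 -2.88, 9 with an unadjusted p under 0.05; summed level 208 and 26.5 CPM in WT, 7.01 and 24.6 in KO), as were the 9 macrophage genes (-3.48, 6; 176.1 and 15.6 CPM in WT, 21.4 and 13.7 in KO). Without WT LPL replicate 1, which held the highest Ptprc, the KO difference in LPL was 0.081 for Slc51a, 0.45 for Slc51b, 0.25 for Abcg5 and 0.28 for Fgf15. In IEL it held for 2 (Abcg8, Slc51a), beside 14.8%, and the reverse for 3 (Fabp6, Nr1h4, Fgf15), beside 12.3%.

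Slc51a was the only member with both KO libraries above both WT libraries in all 3 preparations, a position held by 77 genes (0.523%). Its log2 differences were 0.26 ± 0.29 in tissue, 0.42 ± 0.29 in LPL and 0.46 ± 0.29 in IEL, none past the test, and in tissue the value was -0.01 with library totals as the only scaling and -0.07 with scaling to epithelial genes. Its partner Slc51b gave 0.47 ± 0.34, 0.57 ± 0.35 and 0.48 ± 0.34. Fabp6 gave 0.29 ± 0.47 in tissue, 0.69 ± 0.47 in LPL and -0.58 ± 0.47 in IEL, where KO replicate 1 alone was low. Fgf15 gave 0.23 ± 0.84, 0.75 ± 1.05 and -0.55 ± 0.90. Slc10a2 gave 0.30 ± 0.99, 0.58 ± 1.17 and 0.71 ± 1.22. Nr1h4 gave 0.10 ± 0.29, 0.25 ± 0.29 and -0.25 ± 0.29. Scarb1 was the only member with a negative value in all 3, -0.59 ± 0.55, -0.19 ± 0.54 and -0.14 ± 0.53. By sign alone, 9 of 10 members were positive in tissue with TMM, beside 48.6% of all genes. With library totals 4 were positive and with scaling to epithelial genes 3, so the sign in tissue depended on the scaling. The median of all genes in tissue was -0.01 with TMM, -0.29 with library totals and -0.35 with scaling to epithelial genes.

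**Figure D5:**
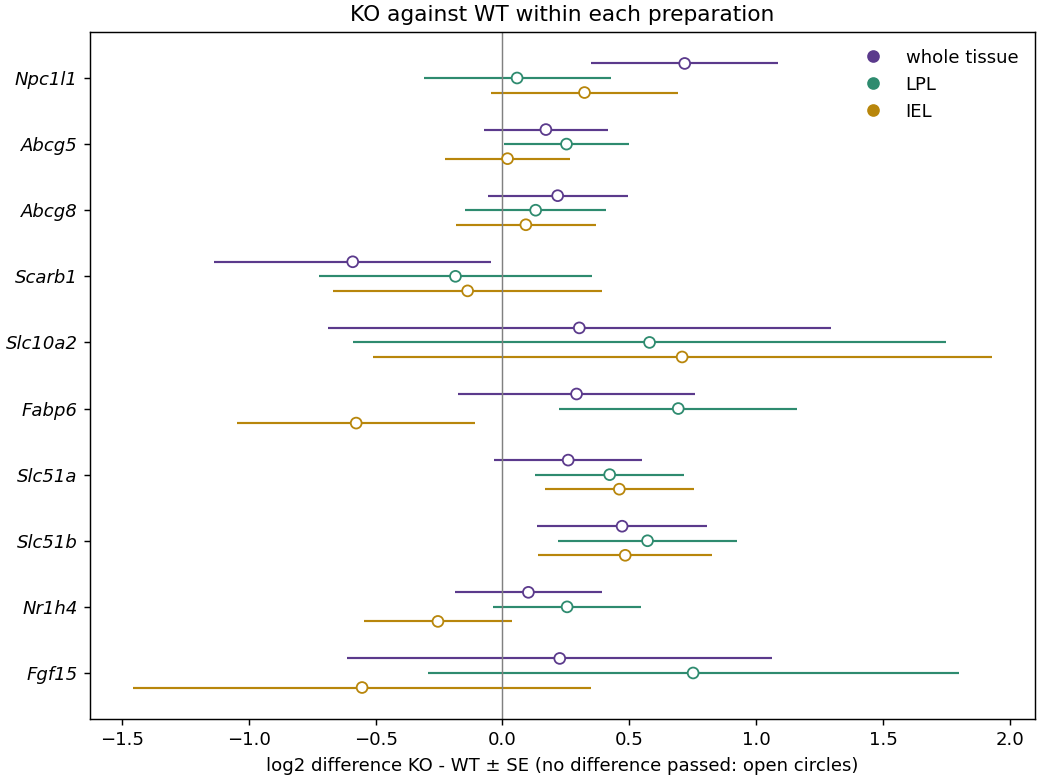
Log2 difference of KO from WT for each member (points, bars ± 1 SE) in whole tissue (purple), LPL (green) and IEL (ochre), scaled by TMM. All points are open since none passed an adjusted p of 0.05, and in tissue the points of Abcg5, Abcg8, Slc51a, Nr1h4 and Fgf15 change sign with library totals as the only scaling, and those and Fabp6 with scaling to epithelial genes. Npc1l1 in tissue is at 0.72 and Slc10a2 has the widest bars.

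The KO difference was also compared between preparations. In 30 such tests of members the values ran from -1.30 to 0.53 on the log2 scale and 0 passed, with 0% of genes called in each of the 3 comparisons. The lowest unadjusted p was 0.0875 (adjusted p = 1.00), for Fabp6 in IEL against LPL (-1.27). At an unadjusted p under 0.05, 0.836% of genes passed in IEL against tissue, 1.96% in LPL against tissue and 0.761% in IEL against LPL.

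Other genes of sterol and bile acid handling were read from lists chosen with knowledge of these data. Of 20 cholesterol synthesis genes and targets of SREBP-2, the factor that raises cholesterol synthesis and uptake, IEL against tissue had 18 lower and 0 higher, with a median of -1.70 beside 0.05 over all genes. Of all genes 23.1% were lower and 21.9% higher there. Sqle, squalene epoxidase, stood at 401 to 774 CPM in tissue and 61.3 to 75.8 in IEL (log2 -2.89), and Fdps, which makes farnesyl diphosphate, was lower by -2.28. LPL against tissue had 16 lower and 1 higher (median -1.25), beside 28% and 27.3% of all genes. The 12 epithelial genes had medians of -1.02 in IEL and -1.03 in LPL against tissue. The part of the epithelial share in the fall of this list was not tested. IEL against LPL had 7 lower and 0 higher, beside 7.92% and 11.5% of all genes. In it Idi1, the isomerase of isopentenyl diphosphate, was lower by a log2 difference of -0.87 (adjusted p = 0.0180, edgeR). Npc1l1, Abcg5 and Abcg8 were higher in that same comparison.

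Of 18 genes of LXR targets, cholesterol efflux and esterification, IEL against tissue had 3 higher and 7 lower (median -0.26), LPL against tissue 2 and 13 (-1.44), and IEL against LPL 8 and 0 (0.72). The shares of all genes higher and lower were 21.9% and 23.1%, 27.3% and 28%, and 11.5% and 7.92% in these 3 comparisons. In IEL against LPL Soat2, which esterifies cholesterol in enterocytes, was higher by 2.00 and Apoa1, an apolipoprotein of high density lipoprotein, by 5.36. Of 20 further bile acid genes 14 were tested, and the numbers higher and lower were 2 and 3 in IEL against tissue, 2 and 7 in LPL against tissue, and 7 and 1 in IEL against LPL, with medians of -0.02, -0.78 and 0.69. The counts of 2 and 3 of 14 in IEL against tissue did not exceed the shares of all genes. Cyp3a11, which hydroxylates bile acids and drugs, was at 286 to 426 CPM in IEL, 12.7 to 88.7 in tissue and 1.04 to 10.7 in LPL, so the IEL libraries stood above all others. Cyp7a1, the rate-limiting enzyme of bile acid synthesis in the liver, was at 0 in every tissue library. In KO against WT, 0 genes of these 3 lists passed in any preparation.

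Genes most like Fabp6 and Npc1l1 were ranked by Pearson correlation of log2(CPM + 1) over the 12 libraries, among 6854 genes with a mean of at least 20 CPM. Libraries of 1 preparation share their cell makeup, so the values are descriptions and carry no p. The 5 nearest to Fabp6 were Nbl1 (r = 0.986), Nts (0.983), Hpcal1 (0.980), Pam (0.979) and Tm7sf2 (0.978). Nts, neurotensin of distal enteroendocrine cells, stood at 51.8 to 87.2 CPM in tissue, 0.37 to 1.04 in LPL and 0.74 to 3.48 in IEL. The 5 nearest to Npc1l1 were Slc27a4 (0.995), Cyp4f14 (0.993), Igsf3 (0.992), Entpd5 (0.992) and Abhd4 (0.991). Slc27a4, a fatty acid transport protein of enterocytes, stood at 813 to 2260 CPM in tissue, 89.4 to 146.7 in LPL and 502 to 853 in IEL, the order tissue, IEL, LPL that Npc1l1 had by its means. Among the members, Fabp6 correlated with Slc10a2, Slc51a, Slc51b, Nr1h4 and Fgf15 at r = 0.89 to 0.96, and Npc1l1 with Abcg5 at 0.90, Abcg8 at 0.96 and Scarb1 at 0.25. Npc1l1 also correlated with the bile acid genes, at 0.51 (Nr1h4) to 0.86 (Slc51b).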

How the data were processed

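Raw read counts per Entrez gene had been deposited by the authors for 12 tissue, LPL and IEL libraries of polyadenylated RNA, with 2 libraries per genotype and preparation. Per the file headers they came from HISAT2 alignments, and per the submitters' processing notes from TopHat, featureCounts and mm10, so the aligner is recorded in 2 ways. Library preparation used a NEBNext Ultra II kit, per the labels' protocols. Whether counting used strand is not given in the sources used here. Groups and replicate numbers were read from sample titles.

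Symbols were matched for 25275 of 27179 genes (99.2% of reads). The 12 libraries were fitted in 1 edgeR 4.0.16 quasi-likelihood model with 6 groups (TMM factors, filterByExpr, Benjamini-Hochberg over 14716 genes, threshold 0.05) in R 4.3.3. KO was compared with WT within each preparation, preparations were compared over genotypes, and KO differences were compared between preparations. CPM were computed with TMM factors. Replicates are labelled biological, and the tests set each difference against the spread between these samples, estimated over the 6 groups together. Alternatives were DESeq2 1.42.0, its size factors, library totals, scaling to 12 epithelial genes, no filter, a replicate block, fits of the groups compared only, and leaving out each library. Fits with the tissue libraries of 1 number were added after the data were seen. A group left with 1 library was assumed to vary like the others. Scripts were tested on simulated data.

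The members, lists and tests were chosen with earlier results of these data known. Named genes were all members, at most 4 genes per list and comparison with the smallest p and a mean of at least 5 CPM, the 5 genes most like Fabp6 and Npc1l1, and Ddx3y, Xist, Ptprc and Epcam as checks. Further genes named beside them (Lct, Gata4, Cd3e, Rasl12, Cyp7a1 and others) were picked after their values were seen. The values of 1 listed gene are not reported here. Figures were drawn with matplotlib 3.10.9.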

Additional observations from a re-analysis of the deposited data

How the results depend on the processing

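Of 820 member values recomputed under alternatives, 748 kept their direction and their side of the threshold, 52 reversed, 11 lost a call and 9 gained one. The 6 bile acid genes were called lower against tissue in IEL under every alternative run, and in LPL too except Nr1h4 with scaling to epithelial genes. With library totals as the only scaling, KO against WT in tissue became -0.073 for Abcg5, -0.028 for Abcg8, -0.011 for Slc51a, -0.18 for Nr1h4 and -0.066 for Fgf15, in LPL -0.038 for Npc1l1, and in IEL -0.058 for Abcg5. The same scaling gave 0.018 for Abcg8 in IEL against tissue, 0.20 for Scarb1 in LPL against tissue and -0.19 for Slc10a2 in IEL against LPL. Scaled to epithelial genes, KO against WT in tissue became -0.13 for Abcg5, -0.093 for Abcg8, -0.064 for Fabp6, -0.074 for Slc51a, -0.22 for Nr1h4 and -0.18 for Fgf15, in LPL -0.065 for Npc1l1 and -0.0054 for Abcg8, and in IEL -0.094 for Abcg5 and -0.019 for Abcg8. It gave 0.50 for Npc1l1 and 1.11 for Abcg8 in IEL against tissue, and 1.08 for Scarb1 in LPL against tissue. With the tissue libraries numbered 1 only, Scarb1 in LPL against tissue was 0.42. The cause of these reversals was not tested beyond the shift of the median that each scaling brings.

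Leaving out 1 library, values that changed sign ran as follows. KO against WT in tissue ran from -0.15 to 0.52 for Abcg5, -0.12 to 0.46 for Abcg8, -1.14 to 0.23 for Scarb1, -0.86 to 1.84 for Slc10a2, -0.25 to 0.41 for Nr1h4 and -1.26 to 2.29 for Fgf15. In LPL it ran from -0.26 to 0.45 for Npc1l1, -0.14 to 0.42 for Abcg8, -0.59 to 0.34 for Scarb1 and -0.042 to 1.76 for Slc10a2, and in IEL from -0.12 to 0.17 for Abcg5, -1.64 to 2.06 for Slc10a2 and -0.027 to 0.88 for Slc51b. Between preparations the ranges were -0.27 to 0.022 for Abcg8 in IEL against tissue, -0.50 to 0.24 for Scarb1 in LPL against tissue and -1.15 to 0.62 for Slc10a2 in IEL against LPL. Members called numbered 6 to 7, 9 and 5 in IEL against tissue, LPL against tissue and IEL against LPL. Over all genes, IEL against LPL fell from 2856 calls to 1267 without WT IEL replicate 2, 1290 without KO LPL replicate 1, and 1320 or 1782 when KO IEL replicate 2 or 1 was left out. KO against WT called 3 genes in tissue without KO replicate 1 and 4 in LPL without WT replicate 2. IEL against tissue called 11667 genes with scaling to epithelial genes and 3955 with tissue number 1 only, beside 6629.

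Same-numbered WT and KO libraries correlated, after removal of group means, at r = 0.638 (tissue), 0.301 (LPL) and 0.465 (IEL). With 2 libraries a group this does not settle whether the numbers pair the libraries, and the labels do not say what a number marks. A replicate block left the calls at 0 members and 0 genes in each KO comparison and changed no member's call between preparations, with 7, 9 and 5 members called. Of all 14716 genes the fit with the block called 5647 in IEL against tissue, 7136 in LPL against tissue and 2050 in IEL against LPL. With the replicate block Npc1l1 in KO tissue was 0.79 (adjusted p = 0.308) and Slc10a2 in IEL against LPL was -0.18. Of the genes most like Fabp6 and Npc1l1, all 10 recurred with a pseudocount of 0.25 CPM and 1 with Spearman correlation. Depth limits Slc10a2, Fgf15 and Scarb1 in the LPL and IEL preparations, where single libraries held 7 to 113 reads of each.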
